A study of Homo sapiens with 48 samples.

Results

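A-431 (A431 here) is an established epidermoid carcinoma line, and its tumors were the subject of this pooled knockout screen: 8 xenograft tumors, 1 value column each, were set against the A431 cells that had been frozen before injection. All 327 genes that the tumor table measured are described, of 334 genes in the library's stated design, and the row of the 136 non-targeting guides served as a reference instead of a member. The 8 tumors are part of a series of 48 samples from 3 squamous carcinoma lines, of which 38 are later samples set against initial cells. A431 cells stably expressed the Cas9 nuclease from pLEX_Cas9 under blasticidin selection. They received the guide virus at a multiplicity of infection of 0.3, so that most infected cells carry a single guide, and were selected with puromycin. Part of the population was frozen, as 2 initial samples for the tumor arm, and the rest went in Matrigel into the rear flanks of SHO mice, with tumors taken after about 2 months. Both the initial cells and the tumors therefore carried Cas9, the guide library and both selections. SHO mice are hairless mice with the scid defect. They lack functional T and B cells and keep natural killer cells and macrophages, so the tumors grew without an adaptive immune response. Nothing in the labels ties a tumor to its mouse or to a value column, and they leave unsaid whether the Cas9 cells were 1 clone or a pool.

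In such a screen each cell carries a guide that cuts 1 gene, and the abundance of the guides is read by sequencing before and after growth. A gene whose loss slows growth or survival is depleted, and a gene whose loss speeds them is enriched. In a tumor this includes engraftment, attachment to matrix and growth with limited supply, in addition to the division machinery that any culture needs. Squamous carcinoma cells derive from stratified epithelium, where basal cells hold to the basement membrane through integrins and laminin, TP63 maintains the basal program, and NOTCH signalling accompanies the exit from it.

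Values are log changes of guide abundance per gene, in the authors' log units, of a base not given in the sources used here. Unless stated otherwise each tumor's values were centred on the median of its 327 genes, and n is 8 tumors. A negative value is read as loss of the knockout. This direction is not written in the table and is taken from genes that dividing cells need, such as MCM5, PCNA and SMC4, whose means were negative. Other such genes were nearer 0, with means of -0.18 for MCM7, -0.23 for CDK1 and 0.09 for TOP2A. The direction is therefore an assumption. Relative to the non-targeting guides the median gene stood at -0.55 to -0.07, depending on the tumor. A gene is said to have fallen or risen when limma gave a Benjamini-Hochberg adjusted p under 0.05 over all genes. Read depth is unknown. The tests contain the spread between the 8 tumors only, which may be partly technical, and not the error of the initial cells. Guide abundance says nothing of which genes the cells express, so the labelled cell type could not be checked against markers.

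In A431 tumors 39 genes fell, 11.9 percent of the 327, and 26 rose, 7.95 percent. With the non-targeting guides as the zero point, 73 were lower, 22.3 percent, and 7 higher, 2.14 percent. All 39 genes that fell did so under both references, and 34 more were lower only against the non-targeting guides. Of the 26 that rose, 19 did so against the library median only, and 7 did so against both: SMARCA4, NOTCH3, JUP, DEGS1, DDIT4, CALML3 and E2F8. The falls were also larger. A mean under -1 was reached by 25 of the genes that fell, and a mean over 1 by 5 of those that rose. Of the genes that fell, 17 were below the median in 8 of 8 tumors, 18 in 7 and 4 in 6. Of those that rose, 15 were above it in 8 of 8 and 11 in 7. By sign alone, 20 of all 327 genes lay below the median in all 8 tumors and 19 above it, including the 17 and 15 just given. Without tumor 1, 25 genes fell and 16 rose, and without tumor 4, 24 fell and 15 rose. The count that rose was also 16 without tumor 2 and 14 without tumor 7, and 20 of the 39 and 12 of the 26 were kept whichever single tumor was left out.

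**Figure D1:**
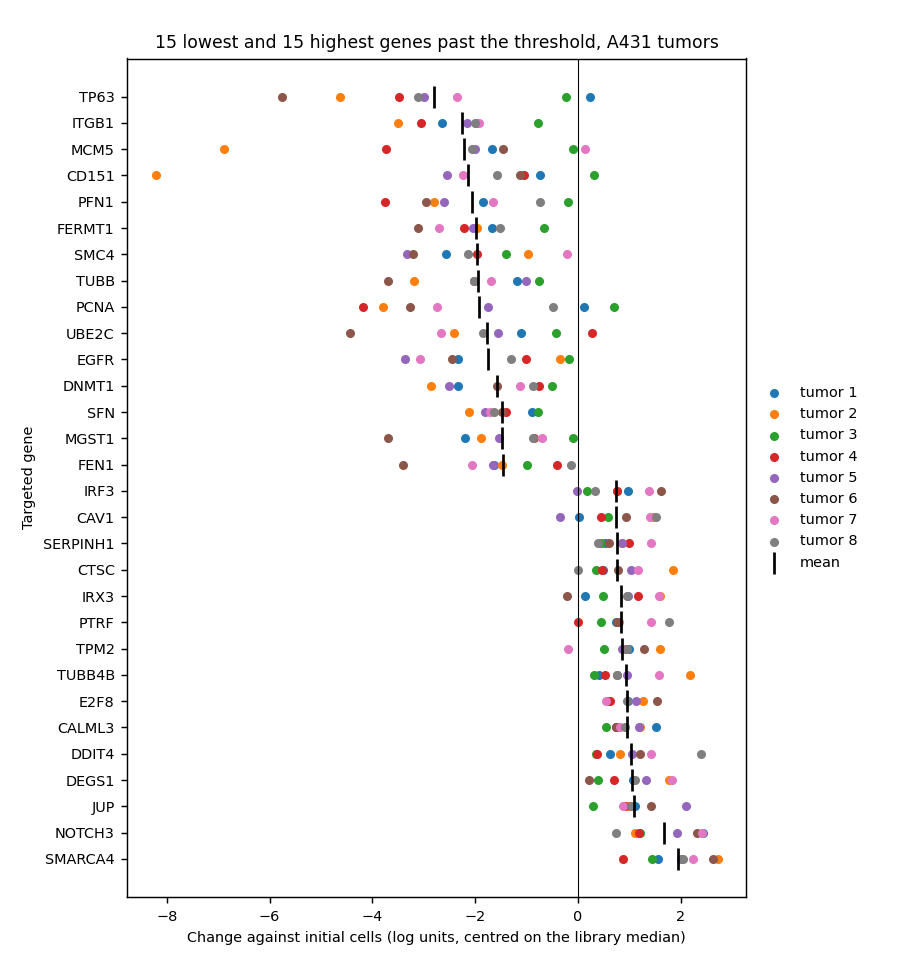
Change against the initial cells (log units, centred on the library median) of the 15 lowest and 15 highest genes past the threshold, with 1 point for each of the 8 tumors and a black bar at the mean. SMARCA4 and NOTCH3 are above 0 in all 8 tumors, while TP63, MCM5, CD151 and PCNA spread over several log units, with at least 1 tumor above 0.

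The tumors differed in how far the library had spread. The SD over the 327 genes ranged from 0.42 in tumor 3 to 1.34 in tumor 6. Tumor 3 had 3 genes under -1 and 2 over 1, whereas tumor 6 had 70 and 48 and tumor 2 had 62 and 38. The mean Pearson correlation of tumor 3 with the other tumors across the 327 genes, which are not independent replicates and share the initial cells, was 0.33, the lowest of the 8, and the highest such mean was 0.42 in tumor 5. Each tumor also had its own extreme. The lowest gene was ITGB1 in tumor 1, CD151 in tumor 2, BIRC5 in tumor 3, PCNA in tumor 4, EGFR in tumor 5, DUT in tumor 6, PLK1 in tumor 7 and TP63 in tumor 8. SMARCA4 was the highest gene of tumors 2, 3 and 6 and NOTCH3 of tumors 1 and 7. The highest genes of tumors 4 and 5, S100A14 at 2.14 and CXCL14 at 2.19, did not pass over the 8 tumors, with means of 0.53 and 0.56, and DDIT4 was highest in tumor 8.

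**Figure D2:**
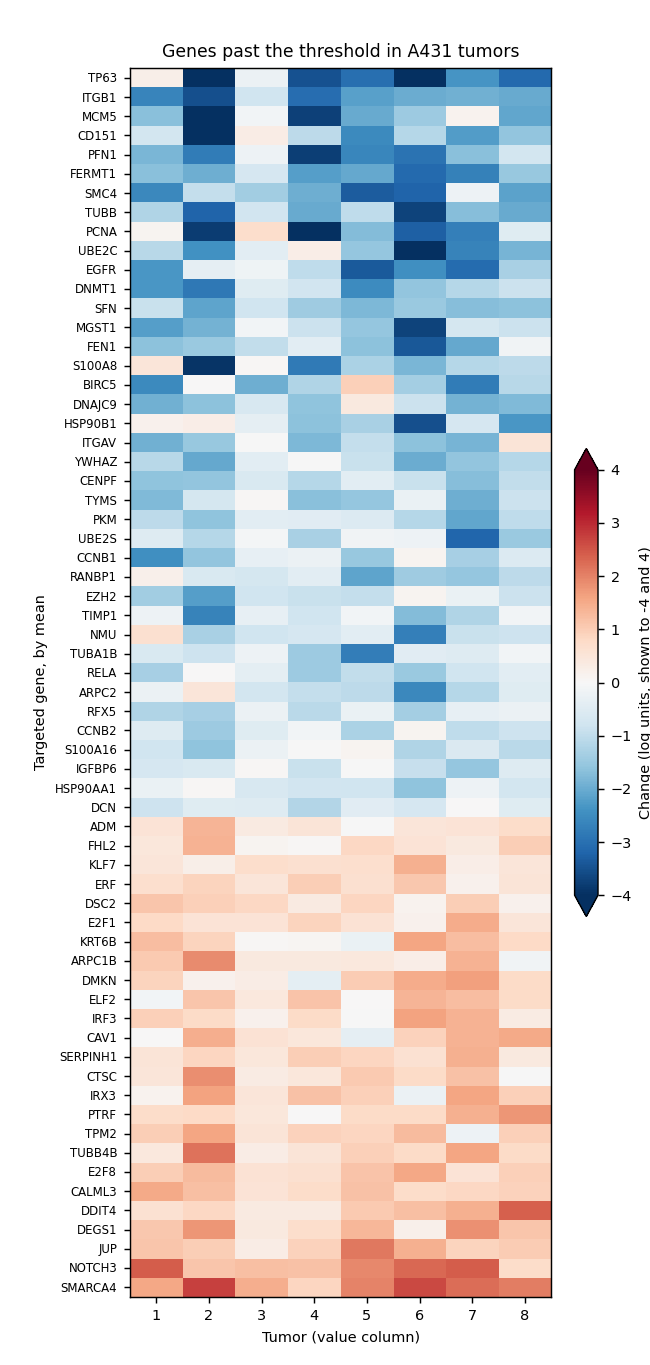
Change against the initial cells (log units, colours limited to the range from -4 to 4) for genes past the threshold, ordered by mean, in each of the 8 tumors. Tumor 3 is pale throughout, and the deepest blue cells are scattered over tumors 2, 4 and 6 instead of forming a common set of rows.

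The SD over tumors exceeded 1 in 41 of the 327 genes, of which 15 fell and 0 rose. The SD enters the test that made these calls, so a gene with a small mean could pass only with a small SD. Some genes of very wide spread did not pass. PLK1, the mitotic polo kinase, stood at -5.87 in tumor 6 and -5.82 in tumor 7, with a median of only -0.91 over the tumors and a highest value of 0.60 (mean -1.79 ± 2.56, SD; limma adjusted p = 0.0641). DUT, which removes dUTP, stood at -6.29 in tumor 6 and between -1.66 and 0.03 in the other 7 (limma adjusted p = 0.0571). MYC was at -2.63 in tumor 2 and -2.91 in tumor 5, and between -1.10 and 0.25 elsewhere. For PLK1 and MYC the mean was carried largely by 2 tumors. For DUT the extreme value also widened the spread, as DUT passed as lower without tumor 6, at a mean of -0.83. It passed without tumor 2 as well. The mitotic activator CDC20 ran from -3.47 in tumor 2 to 1.48 in tumor 7, and its mean of -0.16 had no settled sign.

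Among surface and adhesion genes, ITGB1 and FERMT1 were below the library median in every tumor. ITGB1, the beta-1 subunit that pairs with most alpha integrins (10:33176201-33294720, minus strand, GRCh37 from GENCODE, with the build of the table not given in the sources used here), was lowest at -3.51, had a median of -2.08 and was highest at -0.78. Tumor 2 was deepest and tumor 3 shallowest. Its mean was -2.26 ± 0.83 (SD, n = 8; limma adjusted p = 7.74e-05). FERMT1, the integrin activator kindlin-1 (20:6055492-6103861, minus strand), ran from -3.11 through a median of -2.00 to -0.67 and again fell in 8 of 8 tumors, with its lowest value in tumor 6. ITGAV, the alpha-v subunit, had a median of -1.58 and was at or under -0.97 in 6 tumors, near 0 in tumor 3 and at 0.52 in tumor 8 (mean -1.15 ± 0.92; limma adjusted p = 0.0121). CD151, a tetraspanin bound to laminin-receptor integrins, ran from -8.22 in tumor 2 to 0.30 in tumor 3 with a median of -1.35. Its mean of -2.15 was -1.28 without tumor 2, where the adjusted p was still under the threshold, and the call ended when any of tumors 1, 4, 5, 7 or 8 was left out.

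Among the 6 measured integrin subunits 2 fell and 0 rose, with a list median of -0.32 against 0.02 over all genes. Counts within lists, here and below, stand beside 11.9 percent of all 327 genes that fell and 7.95 percent that rose. They were not tested against these shares. ITGB4, which forms the hemidesmosome integrin with ITGA6, had a mean of 0.66 ± 0.79 and did not pass (limma adjusted p = 0.0787). It lay above ITGB1 in 8 of 8 tumors, and ITGB1 minus ITGB4 averaged -2.92. ITGA6 ran from -1.94 to 1.02 and ITGA3 from -1.82 to 0.69, and neither passed. Of 9 genes of laminin-332 and the hemidesmosome, CD151 alone fell and 0 rose, and LAMA3 and LAMB3, chains of laminin-332, had means of 0.12 and 0.33. CAV1, the main caveolin, ran from -0.36 to 1.51 with a mean of 0.75, and FHL2, an integrin-binding LIM protein, from 0.04 to 1.40 with a mean of 0.59. Both rose, at limma adjusted p = 0.0428 and 0.0462, and the call of FHL2 ended without any 1 of the 8 tumors and that of CAV1 without any of tumors 2, 3, 4, 6, 7 and 8.

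EGFR, the epidermal growth factor receptor (7:55086710-55279321, plus strand), fell in 8 of 8 tumors but to unequal depth. It ran from -3.36 in tumor 5 through a median of -1.82 to -0.17 in tumor 3. Tumors 1, 5, 6 and 7 were under -2.3, while tumors 2 and 3 were above -0.4. The mean was -1.76 ± 1.22 (limma adjusted p = 0.00306). YWHAZ and SFN, both 14-3-3 proteins that bind phosphorylated partners, fell as well. SFN, the 14-3-3 sigma form of stratified epithelium, ran only from -2.12 to -0.78 with a median of -1.56, and its SD of 0.45 was among the smallest of the genes that fell (mean -1.48; limma adjusted p = 0.000196). YWHAZ had a mean of -1.15 ± 0.72.

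Of 11 squamous and epidermal transcription factors and receptors, TP63 fell and NOTCH3, IRX3 and ELF2 rose. TP63 (3:189349178-189615065, plus strand) had the lowest mean of the library. It was lowest at -5.75 in tumor 6, had a median of -3.06 and stood at -0.24 in tumor 3 and 0.23 in tumor 1. It was under -2.3 in the other 6 tumors, so 2 tumors stood apart from the other 6 (mean -2.79 ± 2.02; limma adjusted p = 0.00264). NOTCH3 (19:15269849-15311806, minus strand), a receptor of the NOTCH pathway, ran from 0.74 through 1.57 to 2.43. Tumors 1, 6 and 7 were above 2.3 and tumor 8 was lowest (mean 1.66 ± 0.68; limma adjusted p = 0.000299). TP63 lay below NOTCH3 in 8 of 8 tumors, and TP63 minus NOTCH3 ran from -8.07 in tumor 6 to -1.45 in tumor 3. IRX3 had a mean of 0.83 and ELF2, an ETS factor, of 0.74. Their calls ended without any of tumors 2, 4 and 7 for IRX3 and of tumors 2, 4, 6, 7 and 8 for ELF2. IRX3 shared its exact value with another gene in tumors 2, 4 and 8. CEBPA, CEBPD, GRHL1, KLF6, ETS2, ID2 and REST did not pass.

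The chromatin enzymes moved apart. SMARCA4 (19:11071608-11190102, plus strand), the ATPase of the SWI/SNF remodeller, had the highest mean of the library. It was lowest at 0.87 in tumor 4, had a median of 2.02 and reached 2.72 in tumor 2, with all 8 tumors also above the non-targeting guides (mean 1.94 ± 0.62; limma adjusted p = 7.74e-05). DNMT1, the maintenance DNA methyltransferase, ran from -2.85 to -0.50 with a median of -1.36 and was low in 8 of 8 tumors, most so in tumors 1, 2 and 5 (mean -1.57 ± 0.89; limma adjusted p = 0.00176). The start of DNMT1 on chromosome 19 is 0.730 Mb from that of SMARCA4. As follows from the signs just given, the 2 genes changed in opposite directions in every tumor. EZH2, the histone methyltransferase of Polycomb, had a median of -0.87 and a mean of -0.90 ± 0.69, and its call ended without tumor 1 (limma adjusted p = 0.0171 with all tumors and 0.0506 without tumor 1). HDAC1 had a mean of 0.06 and did not pass. DNAJC9, a histone chaperone, was the 1 gene of 7 histone and chromatin proteins that fell, with a mean of -1.24.

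Genes of DNA replication and mitosis fell in part. The direction of the values was taken from MCM5, PCNA and SMC4 among others, so the sign of their change is no separate result. Of 9 replication fork and repair genes 3 fell and 0 rose, with a list median of -0.54. FEN1, the flap nuclease, ran from -3.40 to -0.14 with a median of -1.55 and was below the library median in 8 of 8 tumors. MCM5, a subunit of the replicative helicase, ran from -6.88 in tumor 2 to 0.13 in tumor 7, with a median of -1.83. PCNA, the sliding clamp, had 4 tumors under -2.7 and a value of 0.70 in tumor 3, with a median of -2.24. The calls of MCM5 (limma adjusted p = 0.0166) and PCNA (0.0147) ended without tumor 4, at limma adjusted p of 0.0514 and 0.0760. MCM3 and MCM7, of the same helicase ring, had means of -0.60 and -0.18 and did not pass. MCM5 lay below MCM7 in 7 of 8 tumors.

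Of 4 genes that supply nucleotides, TYMS, thymidylate synthase, fell to a mean of -1.09 ± 0.75, and DUT, TK1 and RRM2 did not pass, though all 4 were lower against the non-targeting guides. Of 11 genes of the mitotic cyclin, CDK1 and ubiquitin group, CCNB1, CCNB2, UBE2C and UBE2S fell and 0 rose, with a list median of -0.70. UBE2C, a ubiquitin-conjugating enzyme of the anaphase-promoting complex, ran from -4.44 in tumor 6 to 0.27 in tumor 4 with a median of -1.70. The call of CCNB1 (mean -0.99) ended without any of tumors 1, 5 and 7, and that of CCNB2 (mean -0.70) held only without tumor 4 or 6. CDK1 itself had a mean of -0.23 and did not pass. UBE2S stood at -3.18 in tumor 7 and at -1.48 or above in the others, and its call ended without any of tumors 1, 2, 4, 7 and 8.

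Of 11 spindle and chromosome genes SMC4, BIRC5 and CENPF fell. SMC4, a core subunit of condensin, ran from -3.32 through -2.05 to -0.22 and was low in 8 of 8 tumors (mean -1.97 ± 1.08; limma adjusted p = 0.000805). CENPF, a kinetochore protein, had a narrow range from -1.70 to -0.43 (mean -1.12 ± 0.48). BIRC5, the survivin subunit of the chromosomal passenger complex, ran from -2.78 in tumor 7 to 0.96 in tumor 5. Its call ended without any of tumors 1, 3, 4 and 7. TOP2A and MKI67 did not pass.

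Among 9 genes of the G1 and E2F axis, E2F1 and E2F8 rose and 0 fell. Against the non-targeting guides 3 of the 9 were lower and 1 was higher. E2F8, a repressor among the E2F factors, ran from 0.55 to 1.53 with a median of 0.96, and was above its relative E2F7 in 8 of 8 tumors (mean 0.95 ± 0.35; limma adjusted p = 0.00306). E2F1 had a mean of 0.69 and was above the median in 8 of 8 tumors. Its call ended without any of tumors 1, 4 and 7. CDKN2B, an inhibitor of CDK4 and CDK6, had a mean of 0.46 ± 0.66 and did not pass (limma adjusted p = 0.169).

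**Figure D3:**
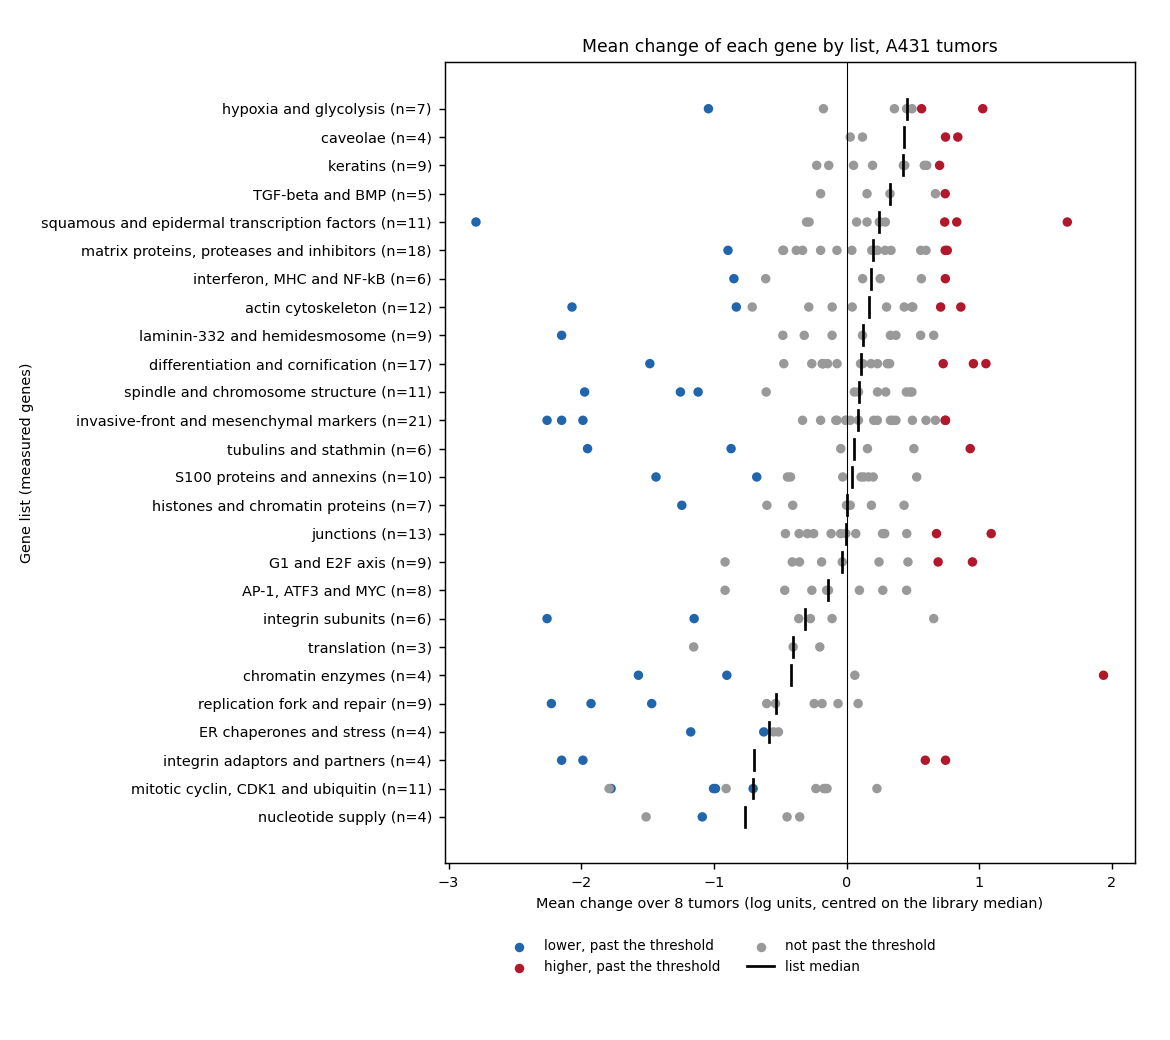
Mean change over the 8 tumors (log units, centred on the library median) of each measured gene, by gene list, with lists ordered by their median (black bar) and points coloured by whether the gene passed the threshold. Lists on nucleotide supply, mitotic cyclins, integrin adaptors, ER chaperones and replication have medians under -0.5. Several lists hold genes past the threshold on both sides.

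Close relatives within families differed. TUBB, a main beta-tubulin, ran from -3.70 through -1.86 to -0.75, with 8 of 8 tumors on the low side (mean -1.95 ± 1.04; limma adjusted p = 0.000799). TUBB4B, another beta-tubulin, ran from 0.31 to 2.18, with 8 of 8 on the high side (mean 0.93 ± 0.64; limma adjusted p = 0.0121). As follows from these signs, TUBB lay below TUBB4B in every tumor, with a mean difference of -2.88. TUBA1B fell to a mean of -0.87 and lay below TUBA1C, which did not pass at 0.51, in 8 of 8 tumors. The call of TUBA1B ended without any of tumors 1, 2, 4, 5 and 7. Guides of such near-identical genes may cut more than 1 copy, and the guide sequences were not used here.

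The actin genes divided in the same way. PFN1, profilin, which feeds actin monomers to growing filaments, ran from -3.76 in tumor 4 through -2.22 to -0.19 in tumor 3 and was low in 8 of 8 tumors (mean -2.07 ± 1.19; limma adjusted p = 0.00096). Of the 2 measured subunits of the Arp2/3 complex, which branches actin filaments, ARPC2 fell to a mean of -0.83 and ARPC1B rose to 0.71. ARPC2 was the lower of the pair in 8 of 8 tumors. The call of ARPC2 ended when any tumor but tumor 2 was left out, and that of ARPC1B when any but tumors 6 and 8 was. TPM2, a tropomyosin, rose to a mean of 0.86 and shared its exact value with other genes in tumors 1, 3 and 8. The other 8 of the 12 actin genes did not pass.

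Of 17 differentiation genes CALML3, DMKN and DEGS1 rose and SFN fell, with a list median of 0.11. Over all genes 7.95 percent rose and 11.9 percent fell. DEGS1, a desaturase of ceramide synthesis, ran from 0.21 to 1.83 with a median of 1.09 (mean 1.05 ± 0.59; limma adjusted p = 0.00459). CALML3, a calmodulin-like protein of epithelium, ran from 0.55 to 1.51. Of 13 junction genes JUP, the plaque protein plakoglobin, and DSC2, desmocollin-2, rose and 0 fell, and the list median was near 0. JUP ran from 0.29 in tumor 3 to 2.10 in tumor 5 with a median of 1.01 and was above the non-targeting guides in 8 of 8 tumors (mean 1.09 ± 0.51; limma adjusted p = 0.00264). Of 9 keratins KRT6B rose to a mean of 0.70, and the list median was 0.43, while KRT5 at 0.44 and KRT14 at 0.05, the basal pair, did not pass. Like all but 7 of the genes that rose, DSC2, DMKN and KRT6B were not higher against the non-targeting guides. The call of KRT6B held without tumor 3 or tumor 5 only, that of DMKN without tumor 2 or tumor 4 only, and that of DSC2 without tumor 4, 6 or 8 only.

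Of the remaining groups, caveolae held CAV1 and PTRF, the coat protein cavin-1, as genes that rose, out of 4. PTRF ran from 0.00 in tumor 4 to 1.76 in tumor 8 with a mean of 0.84. Of 7 hypoxia and glycolysis genes DDIT4, a stress-induced inhibitor of mTORC1, and ADM, adrenomedullin, rose, and PKM, pyruvate kinase, fell. DDIT4 ran from 0.35 to 2.39, with tumor 8 highest and tumors 3 and 4 lowest (mean 1.03 ± 0.67; limma adjusted p = 0.00776). PKM was low in 8 of 8 tumors, from -2.08 to -0.44. HSP90B1 and HSP90AA1, HSP90 chaperones of the endoplasmic reticulum and the cytosol, fell out of 4 chaperone and stress genes, to means of -1.17 and -0.62, and both calls ended without any of tumors 4, 5, 6, 7 and 8. The call of HSP90AA1 also ended without tumor 1 or 3, and that of ADM without any tumor but tumor 5.

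S100A8 and S100A16 fell among 10 S100 proteins and annexins. S100A8 ran from -3.91 in tumor 2 to 0.49 in tumor 1 (mean -1.44 ± 1.44), and its call ended without tumor 4, while S100A9, its partner in calprotectin, had a mean of 0.11 and did not pass. RELA, the p65 subunit of NF-kB, fell to a mean of -0.85, and IRF3, an interferon regulatory factor, rose to 0.75. RELB, another NF-kB subunit, did not pass and lay above RELA in 8 of 8 tumors. Among 18 matrix proteins, proteases and inhibitors TIMP1 fell and SERPINH1, a collagen chaperone, rose. Among these single members the call ended without any of tumors 1, 4, 6 and 7 for IRF3 and of tumors 1, 2, 4, 6 and 7 for TIMP1. That of S100A16 held only without tumor 4 or 5. Of 21 markers of the invasive front 3 fell, ITGB1, FERMT1 and CD151, beside 11.9 percent of all genes. CAV1 rose, and VIM, PDPN and TNC were among those that did not pass. Of 8 genes of AP-1, ATF3 and MYC, 0 passed in either direction in limma, although FOSL1 and MYC were lower against the non-targeting guides. Of 3 translation genes 0 passed in either direction in limma. The lists leave out 125 of the 327 genes, of which 7 fell and 3 rose. Among them MGST1, a microsomal glutathione transferase, ran from -3.69 to -0.10 and was low in 8 of 8 tumors (mean -1.48 ± 1.13; limma adjusted p = 0.00622).

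Set beside A431 cells grown for 3 weeks in culture against their own initial cells, the tumors shared part of their losses. Of the 39 genes that fell in tumors 14 also fell in culture, 35.9 percent, which is 37.8 percent of the 37 genes that fell there (11.3 percent of all). They were ARPC2, CCNB1, DNAJC9, DNMT1, EGFR, EZH2, FEN1, HSP90B1, PKM, RANBP1, TP63, TUBA1B, TYMS and UBE2S. Of the 26 genes that rose in tumors DEGS1 alone was also among the 7 that rose in culture (2.14 percent of all). These overlaps count calls and do not test a difference.

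The difference between tumors and the 2 cultures was tested directly, and the answer depended on how the spread was modelled. With 1 spread for both settings limma called 0 genes lower and 0 higher, with 20 genes at an unadjusted p under 0.05. With a spread of their own for each setting 18 genes were lower in tumors (5.50 percent) and 22 higher (6.73 percent). With each column divided by its median absolute deviation, which removes the wider spread of tumor values, 7 were lower (2.14 percent) and 29 higher (8.87 percent). Both of these alternatives called ANXA5, CENPF, FERMT1, SERPINB4, SFN and TUBB lower in tumors, and ACTB, EZH2, GLTSCR2, JUNB, JUP, KLF16, SLC2A1, SMARCA4, TUBA1C, TUBB4B and TXNDC17 higher.

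SMARCA4 had the largest positive difference in log units, although EZH2, DUT, SLC2A1 and TUBA1C, among others, exceeded it on the scaled columns. Its 2 cultures were at -0.44 and -0.02 and all 8 tumors were above both, a difference of 2.17 ± 0.47 (SE; limma adjusted p = 0.119 with 1 spread, 7.37e-05 with separate spreads and 0.00178 on the scaled columns). FERMT1 was at -0.25 and -0.17 in culture and lower in all 8 tumors, a difference of -1.78 ± 0.52 (SE; limma adjusted p = 0.243 with 1 spread, 0.000313 with separate spreads and 0.0281 on the scaled columns). SFN and TUBB were likewise below both cultures in 8 of 8 tumors. NOTCH3, SLC2A1 and TUBA1C were above both cultures in 8 of 8 as well. With only 2 cultures such separation is easily reached, and the genes that show it were not counted over the library. The largest negative differences in log units were those of PCNA (-2.04), CD151 (-1.99), TUBB (-1.92) and MCM5 (-1.82). PCNA, CD151 and MCM5 had culture means of 0.11, -0.16 and -0.41. They were below both cultures in 6, 7 and 6 tumors and above both in 1, 1 and 2. Of these genes PCNA was called with separate spreads (limma adjusted p = 0.0159), CD151 and MCM5 were not, and none of the 3 passed on the scaled columns. EZH2 stood at -2.76 and -2.30 in culture, and all 8 tumors lay above both. ITGB1 was below both cultures in 7 of 8 tumors and was called with separate spreads (limma adjusted p = 0.0014) but not on the scaled columns (0.449). For EGFR the tumors were below both cultures in 4 and above both in 3, and for TP63 in 6 and 2, with no call in any of the 3 fits.

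**Figure D4:**
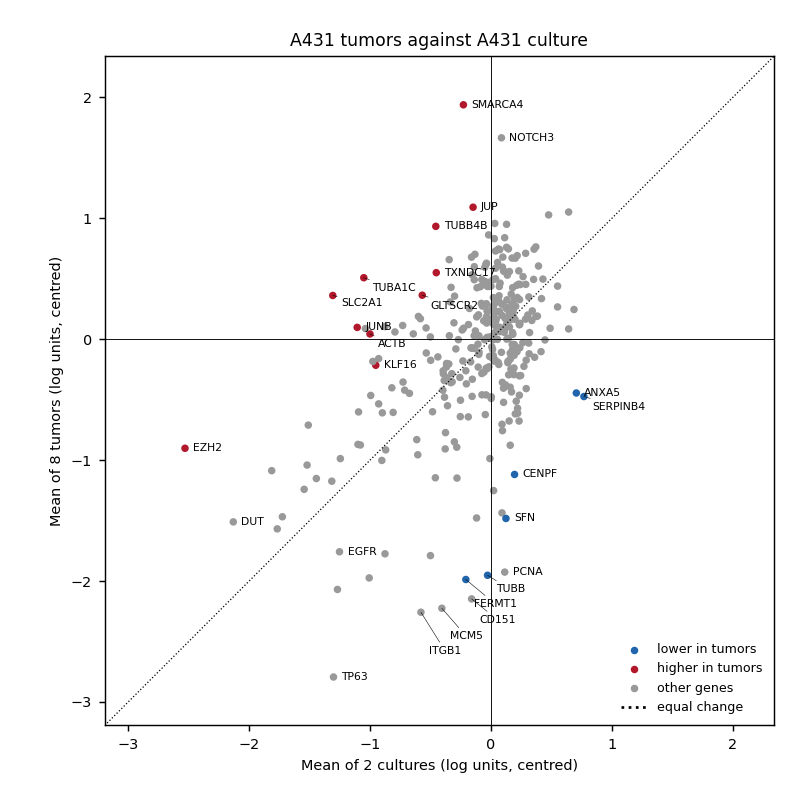
Mean change of each of the 327 genes in the 8 A431 tumors (vertical) against the mean of the 2 A431 cultures (horizontal), in log units centred on the library median, with a dotted line of equal change. Coloured genes were called both with separate spreads and on scaled columns, and SMARCA4 lies farthest above the line while FERMT1, TUBB and SFN lie below it near 0 on the culture axis.

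Tumors of CAL27, a tongue carcinoma line also grown in SHO mice (10 tumors), and of SCC13, a skin carcinoma line grown in another immunodeficient strain (16 tumors), gave the other comparison. Of the 39 genes that fell in A431 tumors, 22 also fell in CAL27 tumors, 56.4 percent, which is 30.6 percent of the 72 that fell there (22.0 percent of all). In SCC13 tumors 24 did, 61.5 percent, or 30.8 percent of 78 (23.9 percent of all). Of the 26 genes that rose, 13 also rose in CAL27 tumors, 50.0 percent, which is 21.3 percent of the 61 that rose there (18.7 percent of all). In SCC13 tumors 15 did, 57.7 percent, or 19.5 percent of 77 (23.5 percent of all). Some values recur, between columns and within them. In 101 of 120 pairs of SCC13 tumors, 4 or more genes had 1 identical difference between the columns (rounded to 6 decimals), against 6 of 45 CAL27 pairs and 0 of 28 A431 pairs. Within single columns some genes also shared an exact value, 6 of them in A431 tumor 1. In the A431 cultures these included DMKN in both, IRX3 and SERPINH1 in culture 1, and ADM, IRF3 and TPM2 in culture 2. Values that recur in either way can be limits of low counts, and this was not tested.

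Against CAL27, EZH2 was the 1 gene lower in A431 tumors (0.306 percent) and 10 genes were higher (3.06 percent). The counts were 29 and 44 with separate spreads, and 26 and 38 when only these 2 lines were fitted. All 11 were among the 20 lower (6.12 percent) and 22 higher genes (6.73 percent) on the scaled columns. EZH2 lay between -2.19 and 0.12 in A431 tumors and between 0.48 and 3.82 in CAL27 tumors, so the lines did not overlap. The difference was -3.22 ± 0.72 (SE; limma adjusted p = 0.00344). TUBB4B did not overlap either: its highest value in CAL27 tumors was -0.46 and its lowest in A431 tumors 0.31, a difference of 3.10 ± 0.61 (SE; limma adjusted p = 0.000914). BRCA1, BTF3, DUT, GINS2, HSPA5, MCM7, PTMA, SLC2A1 and YBX1 were the other genes higher in A431. A lack of overlap was not limited to genes that passed. For DEGS1 all 8 A431 tumors lay below every CAL27 tumor, at limma adjusted p = 0.124. Genes without overlap were not counted over the library. SMARCA4 and NOTCH3 differed from CAL27 by 0.31 and -0.21 with SEs of 0.69 and 0.65 and did not pass in this fit, although SMARCA4 passed on the scaled columns as higher in A431 (limma adjusted p = 0.0273).

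Against SCC13, 34 genes were lower in A431 tumors (10.4 percent) and 35 higher (10.7 percent). With the non-targeting guides as the zero point the split became 5 lower and 121 higher. On the scaled columns 23 were lower (7.03 percent) and 16 higher (4.89 percent). Lower in both fits were 11 genes: ADM, BIRC5, CD151, CDKN2B, CEBPA, FAM46B, KRT1, PCNA, RFX5, TNFRSF12A and TUBB. ACTB, BTF3, CCND2, JUNB, SLC2A1, TUBA1C and USF2 were the 7 higher in both fits. By the rule used for culture, separate spreads and scaled columns, ITGAV and RELA were also lower and DDIT4, S100A2 and SMARCA4 also higher. FERMT1, ITGB1, NOTCH3, SMARCA4 and TP63 did not pass in the fit of all 3 lines. On the scaled columns all of them passed, at limma adjusted p from 3.73e-05 (SMARCA4) to 0.00135 (ITGB1). TUBB and PCNA, low in A431 tumors, had means of -0.02 and 0.19 in SCC13 tumors. CDKN2B, which did not pass in A431, lay between 2.74 and 11.42 in SCC13 tumors and between -0.40 and 1.54 in A431 tumors, a difference of -7.25 ± 0.74 (SE; limma adjusted p = 3.53e-12). SLC2A1, the glucose transporter GLUT1, was higher in A431 tumors than in tumors of either other line, since it had a mean of 0.36 in A431, -2.30 in CAL27 and -2.48 in SCC13.

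**Figure D5:**
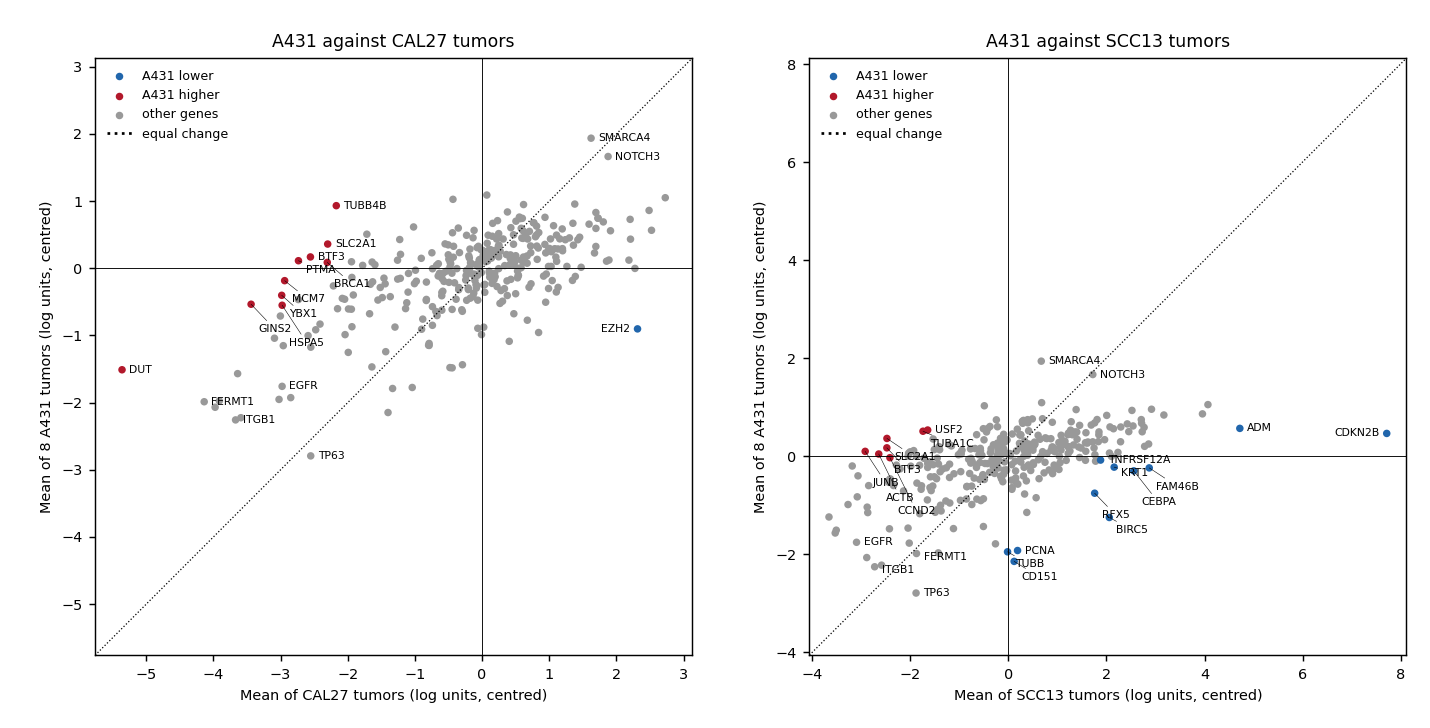
Mean change of each gene in the 8 A431 tumors (vertical) against the mean in CAL27 tumors (left panel) and SCC13 tumors (right panel), in log units centred on the library median, with a dotted line of equal change. Coloured and labelled genes were called both in the fit of all 3 lines and on scaled columns, EZH2 and TUBB4B standing apart from the CAL27 line of equal change and CDKN2B from that of SCC13, beside labelled genes shown for reference.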

How the data were processed

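Guide abundance was measured by sequencing amplified guides from genomic DNA. The submitters' processing notes name Bowtie2 without a version. The authors deposited log fold changes per gene for each later sample, relative to the non-targeting guides, whose row is 0 in every column. No ratio or fold is derived, with the log base, pseudocount, guide summary and build not given in the sources used here. For A431 tumors the table has 8 value columns without replicate numbers or names, and tumors 1 to 8 follow the column order.

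Columns were centred on the median of 327 genes and fitted with limma 3.58.1 in R 4.3.3 (lmFit, eBayes, Benjamini-Hochberg at 0.05). Both A431 tables entered 1 fit for tumors minus culture, and the tumor tables of the 3 lines entered another, assuming a common log base. Separate spreads combined the moderated variances of the groups. The fits were tested on simulated data. Alternatives were the non-targeting or mean reference, array weights, scaled columns, a robust trended prior, exact sign-flip tests, a minimum change of 0.5, the removal of genes with shared values and of each tumor.

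The 65 named genes were the 15 lowest and 15 highest means past the threshold with the same sign in at least 6 tumors, list members past it or with the smallest adjusted p of their list, each tumor's extremes, the 8 widest SDs and 9 fixed genes. For differences, the 8 lowest and 8 highest past the threshold were taken, or 5 on each side where fewer than 5 passed. YWHAZ and members of the lists that did not pass were named after their values were seen. Members, lists (27) and rules were chosen with earlier results of these data known. Some genes are not reported here. Positions came from GENCODE on GRCh37, matched by symbol for 312 genes and by RefSeq synonym for 15.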

Additional observations from a re-analysis of the deposited data

Results flagged for a closer look

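Among the 65 named genes, 3 had 1 tumor far from the other 7 by Dixon's gap: CD151 in tumor 2 (-8.22), DUT in tumor 6 (-6.29) and UBE2S in tumor 7 (-3.18). Chance flags about 1 in 20 groups that were not chosen by their values. The named genes were chosen in part by extreme values, so this rate does not hold for them. CD151 and DUT met the rules for a tumor's lowest gene and for the 8 widest SDs.

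The following differences between A431 tumors and tumors of another line passed limma's test of the difference itself. Against CAL27 the 8 largest positive differences were those of DUT (3.85), TUBB4B (3.10), GINS2 (2.90), PTMA (2.85), MCM7 (2.76), BTF3 (2.73), SLC2A1 (2.66) and YBX1 (2.58). EZH2 was lower (-3.22). Against SCC13 the lower genes were CDKN2B (-7.25), ADM (-4.15), BIRC5 (-3.31), FAM46B (-3.11), TPM2 (-3.10), DEGS1 (-3.02), CEBPA (-2.86) and CEBPD (-2.61). The higher genes were JUNB (3.02), PABPC1 (2.99), SLC2A1 (2.84), ACTB (2.69), YBX1 (2.67), BTF3 (2.65), DNAJC9 (2.42) and CCND2 (2.39). Of these, TPM2, DEGS1, CEBPD, DNAJC9, YBX1 and PABPC1 did not pass against SCC13 on scaled columns. The host strain and the line cannot be told apart for SCC13.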

How the results depend on the processing

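The count of 39 genes lower in A431 tumors became 73 against the non-targeting guides, 0 in the exact sign-flip test and 9 against a minimum change of 0.5, and ranged from 24 to 33 with 1 tumor left out. The count of 26 higher became 7, 0 and 2, with a range of 14 to 20. The sign-flip test allows no p below 0.0078, which 39 genes reached, and 107 genes had an unadjusted limma p under 0.05. The 7 genes higher against the non-targeting guides ranged from 3 (without tumor 5) to 8. Scaled columns, array weights, the mean reference, a robust prior and the removal of genes with shared values kept both counts within 1.5 times. The mean reference gave 31 lower and 38 higher, and the robust prior 34 and 36. In these 2 settings more genes were higher than lower, the reverse of the main fit. For tumors minus culture, 0 lower genes became 18 with separate spreads and 7 on scaled columns, and 0 higher became 22 and 29, with a range of 0 to 1 when a tumor or culture was left out (1 without tumor 4). Against CAL27, 1 lower gene became 29 with separate spreads, 20 on scaled columns and 26 with the 2 lines only, and 10 higher became 44, 22 and 38, and 24 against the non-targeting guides. Against SCC13, 34 lower became 5 and 35 higher became 121 against the non-targeting guides, and the higher count was 16 on scaled columns. CDC20 reversed, from a mean of -0.16 to 0.31 without tumor 2 and 0.018 as a median, with a range of -0.40 to 0.31 when 1 tumor was left out. Of the 65 named genes, 17 lost their call against the non-targeting guides and 17 with array weights. The cause of these changes was not tested. No paired analysis was possible because the value columns carry no replicate numbers. Depth, the log base and the error of the initial cells are unknown, so small values cannot be weighed by their counts.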
